A study of Mus musculus with 8 samples.

Results

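The 9 genes described here are the cyclins whose symbols were listed for the line SN4741: cyclins D1, D2 and D3 (Ccnd1, Ccnd2, Ccnd3), cyclins E1 and E2 (Ccne1, Ccne2), cyclin A2 (Ccna2), cyclins B1 and B2 (Ccnb1, Ccnb2) and cyclin F (Ccnf). They were found by symbol in the gene lists of the deposited single-cell count matrices, where they are 9 of 31053 genes. No limit on a measured value chose them, but they were chosen with earlier results of these data known. SN4741 is reported to be a clonal mouse line from embryonic substantia nigra. It carries a temperature-sensitive SV40 T antigen under a tyrosine hydroxylase promoter. The study karyotyped it as polyploid and unstable, with a chromosome complement that differed between all the cells assessed. The 4 libraries at the permissive temperature (37 °C) came from cells kept in 10% fetal bovine serum (FBS), and the 4 libraries at the non-permissive temperature (39 °C) came from cells held for 48 hours in 0.5% FBS, the study's differentiation treatment. All 8 carried the same transgene and were labelled wild type, and temperature and serum changed together, so their effects cannot be told apart. The labels do not say whether the replicates were separate cultures, so p-values measure the spread between these libraries, which may be technical.

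Cyclins are the regulatory subunits that switch on cyclin-dependent kinases (CDKs), and most are made and destroyed once per cell cycle. D-type cyclins respond to growth factors and act with CDK4 and CDK6 on the retinoblastoma protein in G1. E-type cyclins act with CDK2 at the entry into S phase, cyclin A2 acts with CDK2 and CDK1 through S and G2, and B-type cyclins act with CDK1 in mitosis. Cyclin F is the exception, since it is the substrate-binding part of a ubiquitin ligase and drives no kinase. In dividing neural precursors these genes are used, and most are lowered when cells leave the cycle.

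At the non-permissive temperature the cyclins of S phase and mitosis were at a small part of their level at 37 °C, whereas the D-type cyclins stayed close to it and Ccnd1 rose. Ccne1 was 19.0-fold, Ccnb2 18.2-fold, Ccna2 13.9-fold, Ccnb1 8.08-fold and Ccne2 4.54-fold lower at 39 °C. Ccnf and the other two D-type genes fell by far less, between 1.18-fold and 1.61-fold. Among cells assigned to G1 at both temperatures, Ccnf went the other way and was 1.81-fold higher at 39 °C, and Ccnb2 was 44.5-fold lower. Levels are given as CPM, counts of unique molecular identifiers (UMIs, 1 per captured transcript) per 1000000 UMIs of tested genes in a library, with totals scaled by edgeR's TMM factors. The chemistry captures the 3′ end of each transcript, so counts do not grow with transcript length.

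The libraries held 985 to 3494 kept cells and 17166686 to 29633818 UMIs. Cells at 37 °C had a median depth of 12728 ± 2776 UMIs and those at 39 °C of 10453 ± 4346 UMIs (mean ± SD of 4 library medians) (two-sided exact permutation test, p = 0.4). The median mitochondrial share was 7.65% ± 0.161 and 8.34% ± 0.355 (SD, n = 4 each), with no overlap (exact permutation p = 0.0286, the smallest that 4 against 4 libraries allow, and 0.0571 adjusted over these 2 measures). Of the markers that check the label of neural precursor, Nes and Sox2 held nearly all UMIs, and the summed level was 486 to 595 CPM at 37 °C and 178 to 196 CPM at 39 °C. Nes was at 430 to 538 CPM at 37 °C and at 105 to 117 CPM at 39 °C, whereas Sox2 was higher at 39 °C (72.6 to 80.7 CPM against 52.0 to 57.2 CPM). The 6 neuronal markers summed to 165 to 193 and 79.3 to 97.7 CPM, and the 6 mesenchymal markers, led by Col1a1 and Col1a2, to 1983 to 2025 and 852 to 878 CPM. The 7 glial markers summed to 3.20 to 3.63 and 4.93 to 5.62 CPM with Olig1 and Olig2 at 0, and the 5 blood and endothelial markers to 15.2 to 18.5 and 27.0 to 35.1 CPM with Hbb-bs and Cdh5 at 0. The part of these shifts in the cyclin results was not tested.

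By the GENCODE M21 annotation of GRCm38, the genes lie on 7 chromosomes. Ccnd1 (ENSMUSG00000070348) is at chr7:144929931-144939925, Ccnd2 (ENSMUSG00000000184) at chr6:127125162-127152193 and Ccnd3 (ENSMUSG00000034165) at chr17:47505051-47599691. Ccne1 (ENSMUSG00000002068) is at chr7:38097984-38107534, Ccne2 (ENSMUSG00000028212) at chr4:11191351-11204779 and Ccna2 (ENSMUSG00000027715) at chr3:36564865-36572150. Ccnb1 (ENSMUSG00000041431) is at chr13:100778650-100786570, Ccnb2 (ENSMUSG00000032218) at chr9:70407692-70421547 and Ccnf (ENSMUSG00000072082) at chr17:24222198-24251484. Ccnd3 and Ccne2 are on the plus strand and the other 7 on the minus strand. Genes on the opposite strand overlap Ccnd1 (LTO1), Ccnd2 (Gm43126 and 9330179D12Rik), Ccnd3 (Bysl), Ccne2 (Ints8) and Ccna2 (Exosc9), and the sources used here do not state whether counting used the strand. Processed pseudogenes named Ccnb1-ps, Ccnb2-ps and Ccnd3-ps exist in the annotation, so the counts of these 3 parents are uncertain to the extent that reads are shared with them.

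Proximal promoters were available for 5 of the 9 genes, and those of the B-type cyclins and Ccnf are shown because these 3 genes had their highest levels in the same cells, those assigned to G2M. Each is the 250 bases before the RefSeq start (RefSeq table, GRCm38.p6), written 5′ to 3′ on the strand of the gene. Capitals mark the CCAAT box (CCAAT) and the cell cycle homology region, or CHR (TTTGAA), searched on both strands. They are elements known from the promoters of genes of late cell cycle.
Ccnb1, chr13:100786487-100786736, minus strand: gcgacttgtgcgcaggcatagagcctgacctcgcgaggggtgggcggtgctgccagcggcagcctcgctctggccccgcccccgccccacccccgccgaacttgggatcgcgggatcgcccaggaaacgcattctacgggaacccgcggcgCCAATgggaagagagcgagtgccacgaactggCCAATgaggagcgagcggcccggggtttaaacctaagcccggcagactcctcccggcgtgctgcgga
Ccnb2, chr9:70421555-70421804, minus strand: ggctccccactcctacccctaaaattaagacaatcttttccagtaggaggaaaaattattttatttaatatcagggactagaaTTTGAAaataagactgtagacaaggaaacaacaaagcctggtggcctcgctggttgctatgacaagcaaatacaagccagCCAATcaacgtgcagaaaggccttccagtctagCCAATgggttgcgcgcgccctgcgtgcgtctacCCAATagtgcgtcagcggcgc
Ccnf, chr17:24251410-24251659, minus strand: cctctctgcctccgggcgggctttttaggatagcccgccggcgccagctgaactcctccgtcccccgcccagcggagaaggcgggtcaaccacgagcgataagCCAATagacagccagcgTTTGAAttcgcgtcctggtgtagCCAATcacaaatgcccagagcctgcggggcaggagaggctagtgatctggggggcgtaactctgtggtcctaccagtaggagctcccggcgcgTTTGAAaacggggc

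Counted from the start, the CCAAT boxes of Ccnb1 began at -99 and -67, those of Ccnb2 at -87, -54 and -21, and those of Ccnf at -147 and -107. CHR letters began at -167 in Ccnb2 and at -130 and -14 in Ccnf. Of 32851 promoters in the table, 33.8% held CCAAT and 16.0% held TTTGAA. Of the 2 Ccnd3 starts, one window held 1 CCAAT at -108 and the other held neither element, and the Ccne1 window held neither. E2F letters (TTTCCCGC, TTTCGCGC, TTTGCCGC or TTTGGCGC), held by 1.86% of promoters, were in none of these windows. A match is a run of letters, not a shown binding site, and no match says only that the letters are not in the window.

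To compare temperatures, the UMIs of a library's kept cells were added up, and 15810 genes were compared by edgeR's quasi-likelihood test with Benjamini-Hochberg adjustment. All 9 cyclins passed the filter on low counts. At an adjusted p under 0.05, 8 of 9 were lower and 1 was higher at 39 °C, where 62.0% of all tested genes passed, 30.5% lower and 31.5% higher. A gene counted as called where it moved by more than 1.5 log2 units in either direction with an adjusted p under 0.01. Of the 9 members, 5 were called, all of them lower, where 5.83% of tested genes were called, 3.62% lower and 2.21% higher. In all 9 the 37 °C and 39 °C libraries were fully separate, as in 56.7% of tested genes. The median log2 fold change of the 9 was -2.18, and that of all tested genes was 0.02.

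**Figure D1:**
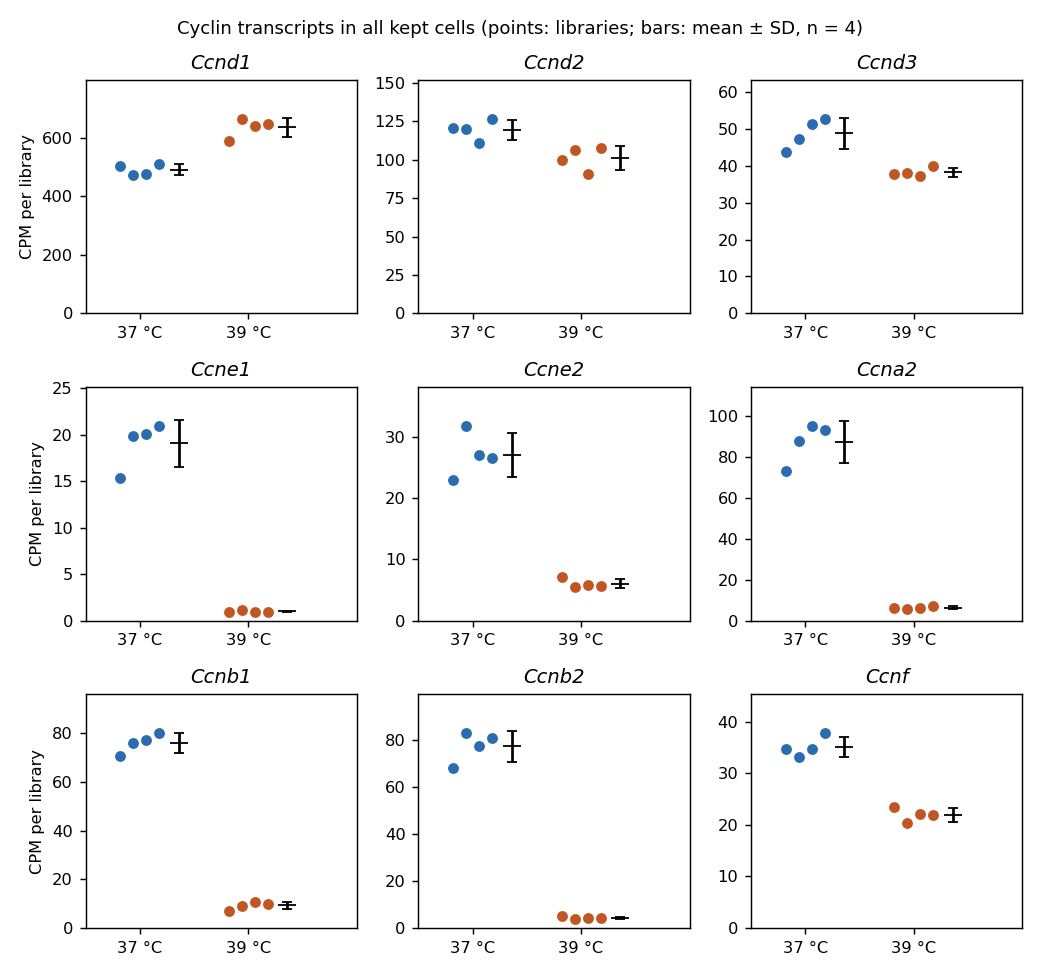
CPM of each cyclin in the 8 libraries (points, 37 °C in blue and 39 °C in orange), with the mean ± SD of 4 libraries beside each group and axes that start at 0. Ccnd1 is the 1 gene with its 39 °C libraries above all 37 °C libraries, at 589 to 665 CPM against 474 to 510 CPM.

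Among the D-type cyclins, Ccnd1, the main growth factor-responsive partner of CDK4 and CDK6, was at 502, 474, 476 and 510 CPM in 37 °C replicates 1 to 4 and at 589, 665, 640 and 646 CPM in 39 °C replicates 1 to 4. All 39 °C libraries lay above all 37 °C libraries. The log2 fold change was 0.37 ± 0.053 (SE; adjusted p = 4.28e-06, edgeR). Ccnd2, its close relative, was at 120, 120, 111 and 127 CPM at 37 °C and at 99.9, 106, 90.8 and 107 CPM at 39 °C. Its groups were separate but near each other, and it fell by 0.24 ± 0.056 on the log2 scale (SE; adjusted p = 9.56e-04, edgeR). Ccnd3 was at 43.6, 47.3, 51.1 and 52.7 CPM at 37 °C and at 37.6, 38.0, 37.1 and 39.8 CPM at 39 °C, a log2 fold change of -0.35 ± 0.057 (SE; adjusted p = 2.04e-05, edgeR). The rise of Ccnd1 and the falls of its relatives thus came with libraries that did not overlap, at sizes of 1.18-fold to 1.29-fold.

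The E-type cyclins, whose kinase partner fires replication origins at the start of S phase, fell unequally. Ccne1 was at 15.3, 19.8, 20.1 and 20.9 CPM at 37 °C and at 0.908, 1.14, 0.956 and 0.964 CPM at 39 °C. It was low in every 39 °C library, with a log2 fold change of -4.25 ± 0.13 (SE; adjusted p = 1.98e-15, edgeR). Ccne2 was at 23.0, 31.8, 27.0 and 26.5 CPM at 37 °C and at 7.15, 5.45, 5.88 and 5.63 CPM at 39 °C, a log2 fold change of -2.18 ± 0.097 (SE; adjusted p = 3.30e-13, edgeR). The groups were far apart for both genes. Ccne1 held 41.3% ± 2.56 (SD, n = 4) of the UMIs of the pair at 37 °C and 14.3% ± 2.45 at 39 °C, so the larger part lay with Ccne2 at both temperatures and the gap was wider at 39 °C.

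Cyclin A2, needed for DNA replication and for the approach to mitosis, was at 73.0, 87.9, 95.2 and 93.3 CPM at 37 °C and at 5.96, 5.68, 6.09 and 7.29 CPM at 39 °C. Replicate 1 was the lowest of the 37 °C libraries and still far above every 39 °C library. The log2 fold change was -3.80 ± 0.091 (SE; adjusted p = 5.93e-17, edgeR). The mitotic cyclin Ccnb1 was at 70.5, 76.0, 77.1 and 80.0 CPM at 37 °C and at 7.15, 9.199, 10.8 and 9.83 CPM at 39 °C, a log2 fold change of -3.01 ± 0.077 (SE; adjusted p = 1.26e-16, edgeR). Ccnb2, the second B-type cyclin, was at 68.0, 83.0, 77.6 and 81.1 CPM at 37 °C and at 5.11, 3.86, 4.11 and 4.16 CPM at 39 °C, a log2 fold change of -4.19 ± 0.082 (SE; adjusted p = 4.87e-18, edgeR). At 37 °C the B-type genes were at nearly equal levels, with Ccnb1 holding 49.6% ± 1.28 (SD, n = 4) of their UMIs, and at 39 °C Ccnb1 held 67.9% ± 6.43, from 58.3% to 72.4% in single libraries.

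Cyclin F, whose ligase removes proteins such as cell cycle regulators and ribonucleotide reductase in G2, was at 34.7, 33.1, 34.7 and 37.8 CPM at 37 °C and at 23.4, 20.3, 22.1 and 21.8 CPM at 39 °C. The groups did not overlap, and the log2 fold change was -0.68 ± 0.056 (SE; adjusted p = 2.34e-09, edgeR). It was the gene with the smallest fall among the 6 cyclins that follow the D type. For all 9 genes, the 19 other settings tried in all cells kept the direction and an adjusted p under 0.05.

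Together the 9 genes were at 970 ± 31.7 CPM (SD, n = 4; plain library totals) at 37 °C and at 832 ± 27.6 CPM at 39 °C, and what they were made of changed more than their sum. D-type genes held 70.1%, 65.9%, 65.8% and 67.0% of the cyclin UMIs in 37 °C replicates 1 to 4 and 93.6%, 94.7%, 93.9% and 94.1% in 39 °C replicates 1 to 4. Every 39 °C library was thus above every 37 °C library. Within the D type, Ccnd1 held 74.5% ± 0.678 (SD, n = 4) at 37 °C and 82.0% ± 0.996 at 39 °C, Ccnd2 18.1% ± 0.542 and 13.1% ± 0.860, and Ccnd3 7.40% ± 0.625 and 4.93% ± 0.208. Restricted to G1 cells, the 37 °C shares were 73.7% for Ccnd1, 20.002% for Ccnd2 and 6.31% for Ccnd3.

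**Figure D2:**
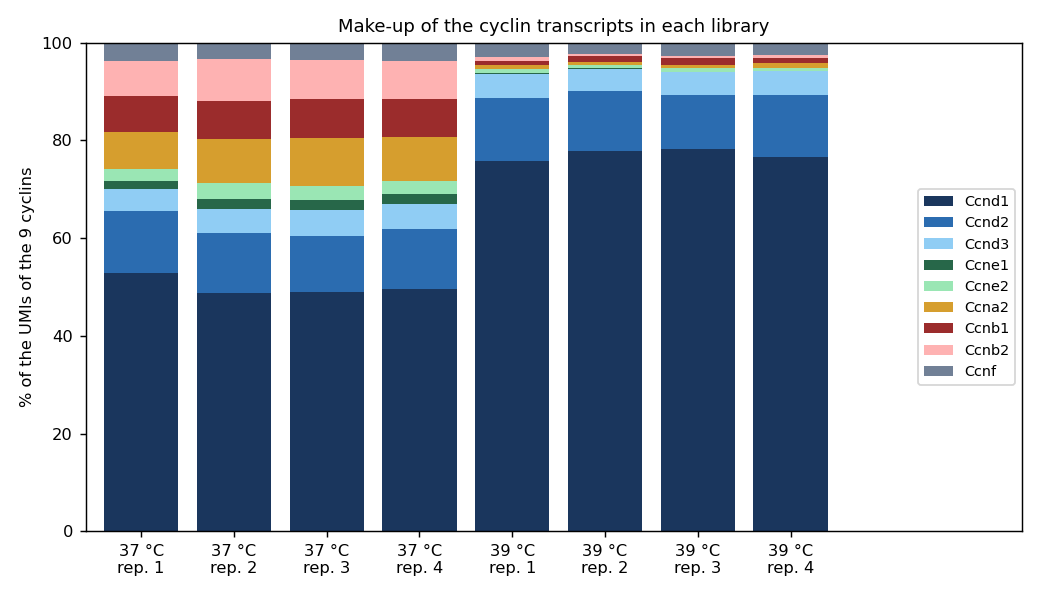
Share of each gene in the UMIs of the 9 cyclins, in percent, with 1 stacked bar for each library and the genes stacked from Ccnd1 at the bottom to Ccnf at the top. The blue segments (D type) reach 65.8% to 70.1% in the 37 °C bars and 93.6% to 94.7% in the 39 °C bars.

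Single cells were compared after thinning each to 3000 UMIs, which left out 215 shallower cells at 37 °C and 579 at 39 °C. A UMI of any D-type gene was found in 74.7% ± 1.26 (SD, n = 4) of cells at 37 °C and in 79.5% ± 1.77 at 39 °C. A UMI of any E-, A- or B-type gene was found in 43.3% ± 3.52 of cells at 37 °C, from 38.3% to 46.4% by library, and in 6.29% ± 0.820 at 39 °C, from 5.09% to 6.87%. Ccna2, Ccnb1 and Ccnb2 were found together in 2.22% ± 0.414 of cells at 37 °C and in 0.0645% ± 0.0476 at 39 °C. Shares of cells with a UMI scale with depth, so these are shares at this depth and not of cells that express a gene.

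By gene, Ccnd1 was detected in 65.9% of thinned cells at 37 °C and 73.8% at 39 °C (means of 4 libraries, 90.02% and 89.0% without thinning). Ccna2 went from 17.8% to 1.70% (39.3% and 3.87% without thinning), Ccnb1 from 14.2% to 2.70% (35.03% and 6.90%) and Ccnb2 from 17.5% to 0.813% (40.2% and 2.96%). Ccne1 went from 4.32% to 0.290% (16.0% and 0.884%), Ccne2 from 7.34% to 1.67% (23.5% and 5.70%) and Ccnf from 9.38% to 5.84% (30.0% and 20.2%). Ccnd2 was in 20.7% and 19.1% of cells (46.3% and 40.1%) and Ccnd3 in 13.1% and 10.7% (43.4% and 32.5%). The Fano factor, the variance of thinned counts over their mean, was 1.02 for Ccnd3, near the value of 1 for counting noise, and 1.60 for Ccnd1, 1.61 for Ccnd2, 1.51 for Ccna2, 1.60 for Ccnb1 and 1.38 for Ccnb2 at 37 °C. Counts of the last 5 genes therefore varied between cells beyond counting noise, and those of Ccnd3 did so hardly at all.

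Cells that held one late cyclin often held another. At 37 °C, Ccnb2 was found in 37.5% ± 4.22 (SD, n = 4) of cells with a Ccnb1 UMI and in 14.2% ± 1.08 of cells without one. Ccnb1 was found in 30.5% ± 1.48 of cells with Ccna2 and 10.7% ± 1.08 of those without. At 37 °C the E-type genes showed the opposite relation to Ccnb2, which was in 7.07% ± 2.86 of Ccne1-positive cells against 18.03% ± 1.69 of the rest. With Ccne2 it was in 8.70% ± 2.44 of positive cells against 18.3% ± 1.82 of the rest. Ccna2 did not show this at 37 °C, with means of 19.6% against 17.8% for Ccne1 and 18.4% against 17.8% for Ccne2. Nor did Ccnb2 at 39 °C, with means of 6.35% against 0.796% for Ccne1 and 3.05% against 0.781% for Ccne2. These 39 °C means rest on 2 and 5 cells with both genes. Among pairs with a D-type gene at 37 °C, Ccnb1 was in 13.5% ± 1.38 of cells with Ccnd1 and 15.4% ± 1.72 of those without. For Ccnd2 the means lay the other way, with Ccnb1 in 15.3% ± 3.10 of cells with it and 13.9% ± 1.25 of those without. Ccnb2 was in 19.6% ± 3.05 of cells with Ccnd2 and 17.0% ± 1.21 of those without. Ccnb2 was in 14.4% ± 0.950 of cells with Ccnd3 and 18.02% ± 1.83 of those without, and lower with Ccnd3 in 4 of 4 libraries. Ccnd2 was in 22.8% ± 1.01 of cells with Ccnd1 and 16.5% ± 1.69 of those without, and higher with Ccnd1 in 4 of 4 libraries. These shares are descriptions over cells of the same libraries, with no test.

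Cells were assigned to G1, S or G2M with Seurat's CellCycleScoring, from lists of S and G2M genes from which the members Ccne2 and Ccnb2 had been taken out. G1 is the class given to cells that score on neither list, so it also holds cells that have left the cycle. By library, 23.9% ± 3.25 (SD, n = 4) of cells were in G1, 41.5% ± 2.39 in S and 34.6% ± 1.29 in G2M at 37 °C, against 83.7% ± 1.32, 12.02% ± 0.697 and 4.26% ± 1.06 at 39 °C. The 39 °C G2M class was small, at 450 cells in all and 27 in replicate 1. Levels by phase come from 24 sums, 3 per library, scaled together.

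At 37 °C the E-, A- and B-type genes and Ccnf each had most of their UMIs in a single phase. Cells in G2M held 37.7% of all UMIs but 89.0% ± 0.900 (SD, n = 4) of those of Ccnb1, 80.3% ± 1.15 of Ccna2, 75.1% ± 1.26 of Ccnb2 and 66.1% ± 2.19 of Ccnf. Cells in S held 41.4% of all UMIs and 76.2% ± 2.09 of those of Ccne1 and 76.0% ± 3.57 of Ccne2. The D-type genes followed the UMIs of all genes more closely, with 22.0% of Ccnd1, 24.6% of Ccnd2 and 19.0% of Ccnd3 in G1 cells, which held 20.9% of all UMIs. Since phases were called from genes that vary with these, the split by phase is a description.

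At 39 °C, where G1 cells held 84.6% of all UMIs, the late cyclins were by these calls still concentrated in the few G2M cells. These cells held 4.23% of all UMIs. These held 71.1% ± 7.54 (SD, n = 4) of the UMIs of Ccnb2, 63.1% ± 6.38 of Ccna2 and 45.3% ± 6.36 of Ccnb1. A further 39.1% ± 2.06 of Ccnb1 UMIs were in G1 cells, against 14.8% ± 1.53 of Ccna2 and 16.6% ± 4.64 of Ccnb2. Ccne1 had 65.2% ± 8.71 of its UMIs in S cells, and Ccne2 had 40.5% ± 3.19 in S and 46.3% ± 3.87 in G1. Ccnf, at 74.6% ± 2.63 in G1 cells and 11.7% ± 4.06 in G2M cells, was closest of the later cyclins to the distribution of all UMIs. The shares at both temperatures depended on how phases were called. With phases called in each library by itself, 53.8% of cells at 39 °C were in G1 and 17.6% in G2M. Of the 54 shares by gene, phase and temperature, 44 then moved by at least the SD of the reported 4 libraries.

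**Figure D3:**
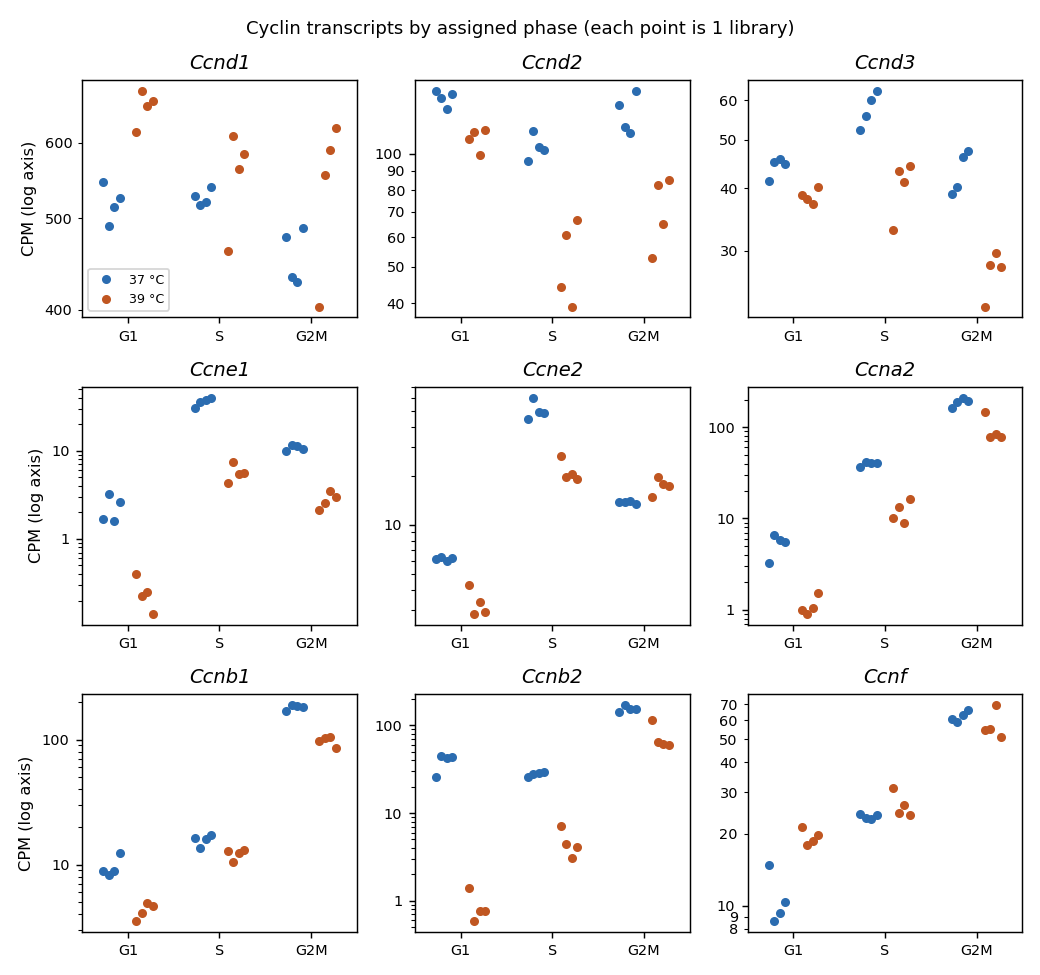
CPM of each cyclin by assigned phase (log axis with its own range in each panel, 24 sums scaled together), with 1 point per library, 37 °C in blue and 39 °C in orange. Ccnb1 is highest in G2M at both temperatures, at 182 and 97.9 CPM on average, and Ccnb2 in G1 cells is at 39.2 CPM on average at 37 °C and 0.875 CPM at 39 °C.

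Ordered by level over the 6 combinations of phase and temperature, Ccnb1 went from G2M at 37 °C (182 ± 8.44 CPM, SD, n = 4) and G2M at 39 °C (97.9 ± 8.78) to S at 37 °C (15.8 ± 1.51), S at 39 °C (12.2 ± 1.21), G1 at 37 °C (9.59 ± 1.94) and G1 at 39 °C (4.30 ± 0.607). Among neighbours in this order, only S at 39 °C and G1 at 37 °C overlapped. Ccna2 had the same order, from 189 ± 20.8 to 1.12 ± 0.271 CPM, with no overlap between neighbours. Ccnb2 differed in that G1 at 37 °C (39.2 ± 8.97 CPM) ranked just below the G2M states, overlapping S at 37 °C (28.0 ± 1.54 CPM). Ccnf was highest in G2M at both temperatures (62.4 ± 3.21 and 57.8 ± 8.14 CPM, overlapping) and lowest in G1 at 37 °C (10.8 ± 2.80 CPM).

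For the E type, S at 37 °C came first, at 35.8 ± 3.85 CPM (SD, n = 4) for Ccne1 and 50.9 ± 6.70 CPM for Ccne2, and G1 at 39 °C last, at 0.255 ± 0.108 and 3.35 ± 0.654 CPM. Ccnd1 was highest in G1 at 39 °C (655 ± 27.9 CPM), apart from the next, S at 39 °C (555 ± 64.8 CPM), and lowest in G2M at 37 °C (457 ± 30.2 CPM), while the 4 states between overlapped their neighbours except at that lowest step. Ccnd2 was highest in G1 at 37 °C (141 ± 6.86 CPM) and lowest in S at 39 °C (52.6 ± 13.1 CPM). Ccnd3 was highest in S at 37 °C (57.8 ± 4.64 CPM), with no overlap with the next, and lowest in G2M at 39 °C (27.2 ± 2.77 CPM).

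Temperatures were then compared within each assigned phase. Phases were called from genes that vary with the members, so a difference within a class can still hold a shift in cycle position. In G1 cells, 7 of 9 members were lower and 2 higher at an adjusted p under 0.05, where 47.1% of 14705 tested genes passed, 22.0% lower and 25.1% higher. By the stricter rule 3 of 9 were called, all lower, where 2.49% of tested genes were called, 1.47% lower and 1.02% higher. The groups did not overlap in 8 of 9, as in 44.0% of tested genes. Ccnb2 in G1 cells was at 25.2, 43.9, 41.0 and 42.9 CPM in 37 °C replicates 1 to 4 and at 1.42, 0.592, 0.763 and 0.759 CPM in 39 °C replicates 1 to 4. Replicate 1 was the lowest of the 37 °C libraries and the highest of the 39 °C libraries, and the groups were far apart. The log2 fold change was -5.48 ± 0.20 (SE; adjusted p = 1.93e-15, edgeR), larger in size than in all cells.

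The G1 cells at 37 °C held Ccnb2 without much of its partners in the late cycle. They held 889 UMIs of Ccnb2, 222 of Ccnb1 and 119 of Ccna2, whereas the G2M cells of the same libraries held 6490, 7560 and 7856. In thinned G1 cells at 37 °C, a Ccnb2 UMI was found in 9.59% ± 2.05 (SD, n = 4), a Ccnb1 UMI in 2.36% ± 1.07 and a Ccna2 UMI in 2.25% ± 0.928. At 39 °C the same shares were 0.255% ± 0.194, 1.54% ± 0.291 and 0.499% ± 0.103. G1 cells had library medians of 8549 to 12892 UMIs at 37 °C and 6724.5 to 16819.5 at 39 °C before thinning. The part of free RNA in these counts was not tested.

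Ccnf in G1 cells was at 14.5, 8.44, 9.10 and 10.2 CPM at 37 °C and at 21.7, 18.2, 18.9 and 19.96 CPM at 39 °C. Replicate 1 was the highest at both temperatures and the groups did not overlap. The log2 fold change was 0.86 ± 0.12 (SE; adjusted p = 2.85e-06, edgeR). Ccnd1, the other gene that rose in G1 cells, averaged 507 ± 22.3 and 660 ± 27.0 CPM (SD, n = 4) and rose by 0.38 ± 0.055 on the log2 scale (SE; adjusted p = 4.64e-06, edgeR), against 0.37 in all cells.

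The remaining members fell in G1 cells. Ccne1 averaged 2.24 ± 0.787 CPM in the 37 °C libraries and 0.257 ± 0.109 CPM in the 39 °C libraries (SD, n = 4; 52 and 20 UMIs), and its log2 fold change was -3.10 ± 0.38 (SE; adjusted p = 4.36e-07, edgeR). Ccna2 went from 5.14 ± 1.39 to 1.12 ± 0.269 CPM, a log2 fold change of -2.14 ± 0.24 (SE; adjusted p = 1.18e-07). Ccnb1, at -1.08 ± 0.15 (adjusted p = 2.14e-06), and Ccne2, at -0.86 ± 0.16 (adjusted p = 1.37e-04), fell by less. Ccnd2 fell by 0.31 on the log2 scale (adjusted p = 9.41e-05). Ccnd3, the member with overlapping groups, had a log2 fold change of -0.15 ± 0.059 (adjusted p = 0.0435), and was no longer under an adjusted p of 0.05 in the fit with a replicate block (adjusted p = 0.0636), with no filter on low counts (0.0937), with sums thinned to the smallest total (0.0860) and without any 1 of 5 libraries, 37 °C replicates 2 (0.102), 3 (0.104) and 4 (0.0789) and 39 °C replicates 2 (0.0698) and 3 (0.0929).

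**Figure D4:**
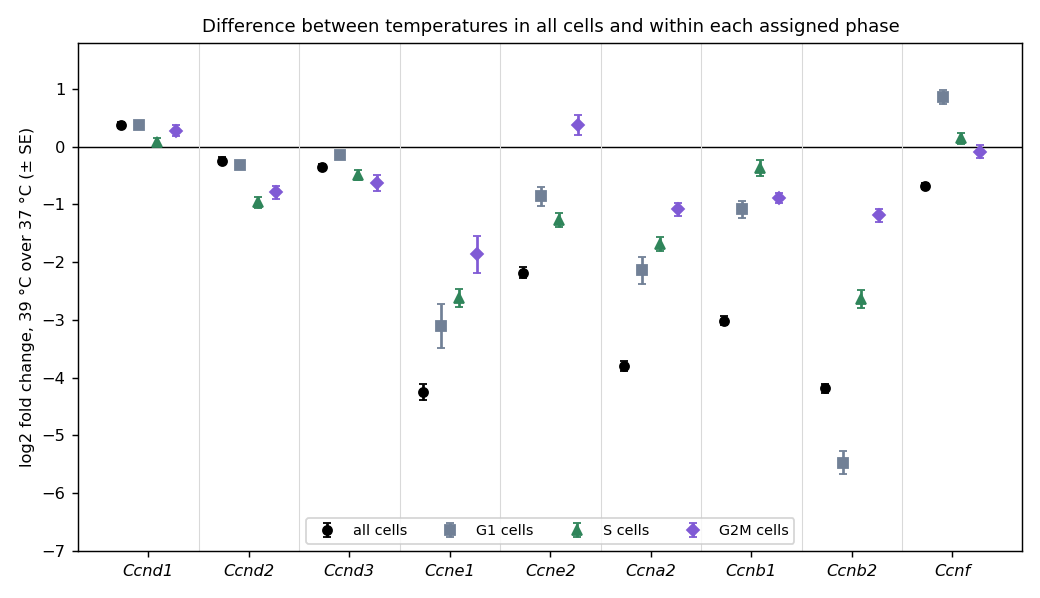
Log2 fold change (39 °C over 37 °C) with its SE for each cyclin, from separate edgeR fits in all cells (black circles), G1 (grey squares), S (green triangles) and G2M cells (purple diamonds). Ccnb2 lies at -5.48 in G1 and -1.19 in G2M cells, and Ccnf lies at 0.86 in G1 cells but -0.68 in all cells.

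In S cells, 7 of 9 members were lower and none of the other two passed the test, where 44.5% of 13781 tested genes passed and 23.7% were lower, and 3 of 9 were called, all lower, against 2.41% of tested genes, 1.06% lower and 1.35% higher. The groups did not overlap in 7 of 9, as in 41.4% of tested genes. Ccne1 in S cells, the phase of its peak, was at 30.6, 35.5, 37.3 and 39.7 CPM at 37 °C and at 4.31, 7.44, 5.49 and 5.62 CPM at 39 °C. All 39 °C libraries were far below all 37 °C libraries, with a log2 fold change of -2.62 ± 0.15 (SE; adjusted p = 3.20e-14, edgeR). Ccne2 averaged 50.8 ± 6.72 CPM in the 37 °C libraries and 21.4 ± 3.36 CPM in the 39 °C libraries (SD, n = 4), with a smaller log2 fold change of -1.27 ± 0.11 (adjusted p = 2.37e-10). Ccna2 (-1.68 ± 0.12) and Ccnb2 (-2.64 ± 0.16) were also called (adjusted p = 2.99e-12 and 8.25e-14).

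Ccnd2 in S cells was at 95.3, 115, 104 and 102 CPM at 37 °C and at 44.1, 60.6, 39.1 and 66.6 CPM at 39 °C. The groups were well apart, and the log2 fold change of -0.96 ± 0.10 (SE; adjusted p = 3.58e-09, edgeR) was larger in size than in G1 cells. Ccnd3 fell by 0.49 on the log2 scale (adjusted p = 2.75e-05, and 0.243 with sums thinned to the smallest total). Ccnb1, at -0.37 ± 0.13 (adjusted p = 0.0264), no longer passed 0.05 with DESeq2 (adjusted p = 0.0733), with totals as the only scaling (0.101), with sums thinned to the smallest total (0.791), without 37 °C replicate 4 (0.0654) and without 39 °C replicate 2 (0.0995). Ccnf was at 23.6 ± 0.520 and 26.5 ± 3.28 CPM (adjusted p = 0.234). Ccnd1 was at 525 ± 9.91 and 554 ± 64.7 CPM with a log2 fold change of 0.08 ± 0.069 (adjusted p = 0.349), and passed the test without 39 °C replicate 1 (0.15 ± 0.054, adjusted p = 0.0253) and with totals as the only scaling (adjusted p = 0.0312).

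In G2M cells, 6 of 9 members were lower and 1 higher, where 29.9% of 13770 tested genes passed, 16.4% lower and 13.5% higher, and 1 of 9 was called, as lower, against 1.95% of tested genes, 0.792% lower and 1.15% higher. The groups did not overlap in 7 of 9, as in 32.8% of tested genes. Cells that scored as G2M at 39 °C thus held less of the mitotic cyclins than G2M cells at 37 °C. Ccnb1 was at 172, 191, 189 and 181 CPM at 37 °C and at 98.3, 104, 106 and 87.0 CPM at 39 °C. The groups were apart, with a log2 fold change of -0.89 ± 0.091 (SE; adjusted p = 3.45e-10, edgeR). Ccnb2 was at 144, 173, 157 and 156 CPM at 37 °C and at 115, 65.1, 61.9 and 60.3 CPM at 39 °C, and Ccna2 at 162, 192, 212 and 195 CPM and at 147, 78.0, 84.1 and 80.2 CPM. In both, 39 °C replicate 1, with its 27 cells, was well above the other 39 °C libraries and below every 37 °C library. The log2 fold changes were -1.19 ± 0.11 for Ccnb2 and -1.09 ± 0.12 for Ccna2 (SE; edgeR, adjusted p = 6.65e-11 and 8.38e-10), and -1.35 ± 0.10 and -1.24 ± 0.10 without that library.

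Ccne1 in G2M cells, with 13 UMIs in all at 39 °C, had a log2 fold change of -1.87 ± 0.32 (SE; adjusted p = 1.06e-05, edgeR). Ccne2 was at 14.0, 14.0, 14.1 and 13.5 CPM at 37 °C and at 14.96, 19.7, 18.1 and 17.6 CPM at 39 °C, groups that did not overlap but whose log2 fold change of 0.37 ± 0.18 did not pass (adjusted p = 0.108, and 0.0471 with totals as the only scaling). Ccnd2 fell by 0.79 and Ccnd3 by 0.63 on the log2 scale (adjusted p = 4.22e-07 and 4.42e-04). Ccnf was at 62.9 ± 3.10 and 58.3 ± 8.10 CPM (SD, n = 4; adjusted p = 0.591). Ccnd1, at 0.28 ± 0.091 (adjusted p = 0.0163), had overlapping groups and no longer passed 0.05 without any 1 of 5 libraries, 37 °C replicates 2 (adjusted p = 0.0609) and 3 (0.0647) and 39 °C replicates 2 (0.0506), 3 (0.0731) and 4 (0.122). With all G2M sums thinned to the total of the smallest, all 7 members that had passed 0.05 no longer did, with Ccnd2 turning to 0.23 ± 0.89 and the other 6 keeping their direction.

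The difference of the temperature effect between phases was tested in a model over the 24 sums with library as a term, in which 10.2% of 14172 genes passed an adjusted p of 0.05 for S against G1 and 6.76% for G2M against G1. Of the 9 members, 6 passed in each. Ccnb2 had the largest difference among the members, with an effect 4.39 ± 0.19 (SE) log2 units less negative in G2M than in G1 cells (edgeR, adjusted p = 1.40e-31) and 2.87 ± 0.33 less negative in S (adjusted p = 2.16e-10). Ccna2 differed by 1.10 ± 0.24 in G2M against G1 (adjusted p = 7.49e-04) and by 0.50 ± 0.26 in S (adjusted p = 0.257). Ccnb1 differed by 0.76 ± 0.20 in S against G1 (adjusted p = 0.00471) and by 0.22 ± 0.15 in G2M (adjusted p = 0.475).

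For Ccnf the effect was 0.66 ± 0.14 lower in S and 0.88 ± 0.14 lower in G2M than in G1 cells (edgeR, adjusted p = 6.06e-04 and 3.97e-06), so the temperature effect was higher in G1 than in either other phase. Ccne2 differed by 1.32 ± 0.24 in G2M against G1 (adjusted p = 3.84e-05), whereas for Ccne1 neither difference passed (adjusted p = 0.438 and 0.175), with SEs of 0.36 and 0.54. The effect on Ccnd2 was 0.61 ± 0.094 lower in S and 0.43 ± 0.11 lower in G2M (adjusted p = 1.12e-06 and 0.00914). That on Ccnd1 was 0.26 ± 0.048 lower in S (adjusted p = 4.90e-05) and 0.05 ± 0.055 lower in G2M (adjusted p = 0.701, and 0.0345 without 39 °C replicate 4). Ccnd3 had an effect 0.29 ± 0.092 lower in S and 0.43 ± 0.14 lower in G2M (adjusted p = 0.0284 and 0.0446). Both Ccnd3 differences missed 0.05 with totals as the only scaling (0.119 and 0.117) and without 37 °C replicate 3 (0.0607 and 0.0849) or 4 (0.0998 and 0.111), and that in G2M also without 39 °C replicate 2 (0.0572), 3 (0.0673) or 4 (0.0519) and with each library scored by itself (0.0842).

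Phase calls were made on all cells together, and scoring each library by itself gave other classes, with 40.1% of cells at 37 °C and 53.8% at 39 °C in G1. Under it the fold changes of Ccna2, Ccnb1 and Ccnb2 were more negative in each phase. In G2M cells they became -2.97 for Ccna2, -2.59 for Ccnb1 and -3.03 for Ccnb2, and in G1 cells -3.93, -2.21 and -6.18. Ccnf kept its rise in G1 cells, at 0.55 (edgeR, adjusted p = 8.52e-05), but fell in S and G2M cells by 0.41 and 0.97 on the log2 scale (adjusted p = 2.99e-04 and 1.86e-11). Ccne2 in G2M cells turned to -0.79 (adjusted p = 3.94e-05), Ccne1 reached -4.04, -4.17 and -3.21 in G1, S and G2M, and Ccnd2 in G1 cells no longer passed (-0.09, adjusted p = 0.225). The sizes within phases therefore depended on the scoring, while the directions of Ccna2, Ccnb1, Ccnb2 and Ccne1 in each phase, and of Ccnf in G1 cells, did not change under it.

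The genes with the most similar levels over the 24 sums were found by Pearson's r of log2 CPM among 6410 genes at 20 CPM or more, as a description, since sums of 1 library share cells and depth. For Ccna2 they were Nuf2 and Top2a (r = 0.99 each), for Ccnb1 Tpx2 and Hmmr (0.99 each), for Ccnb2 Cdca3 (0.98) and Kif20a (0.96), and for Ccnf Spc25 and Hjurp (0.97 each). For Ccne1 they were Umps and Nasp (0.98 each) and for Ccne2 Lig1 (0.98) and Gjc1 (0.97). The D-type genes had less similar partners, Rps7 (0.92) and Rbms1 (0.91) for Ccnd1, Ftl1 (0.93) and Micu2 (0.92) for Ccnd2, and Rhoc (0.94) and Rrp15 (0.93) for Ccnd3. Of these 18 genes, 7 belong to the lists used to call phases. Among the members themselves, r was 0.93 between Ccna2 and Ccnb1 and 0.89 between Ccne1 and Ccne2, but -0.02 between Ccnd1 and Ccnd2.

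The other genes of the pathway were read from 6 lists in the same fit of all cells. Of 13 cyclin-dependent kinases and activators, 11 were lower, none higher and 3 called, with a median log2 fold change of -0.73. The called genes were Cdc25c, a phosphatase that activates CDK1 (-3.47 ± 0.12, SE), Cdk1 itself (-2.75 ± 0.075) and Cks1b, a CDK-binding subunit (-1.96 ± 0.077; edgeR, adjusted p = 5.48e-15, 2.71e-16 and 6.03e-14). The other catalytic partners of the members, given for that role and not by the naming rule, fell by less: Cdk2, partner of cyclins E and A, by 0.73, and Cdk4 and Cdk6, partners of the D type, by 0.70 and 0.71 on the log2 scale (adjusted p = 8.17e-08, 1.19e-09 and 9.98e-11). The kinases of the D type thus fell while Ccnd1 rose.

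Of 7 CDK inhibitors, 3 were higher and 3 lower, none was called, and the median was 0.09. The largest changes were in Cdkn2d (-1.48 ± 0.057, SE) and Cdkn2c (1.03 ± 0.051), both inhibitors of CDK4 and CDK6 (edgeR, adjusted p = 4.35e-14 and 1.78e-12). Cdkn1a, which binds cyclin E and A kinases and was chosen after its value was seen, averaged 1263 ± 86.2 CPM in the 37 °C and 2210 ± 118 CPM in the 39 °C libraries (SD over 4 libraries), and rose by 0.81 ± 0.062 on the log2 scale (adjusted p = 1.15e-09). Of 19 Rb, E2F and DREAM factors, which hold or release transcription of late cyclins, 14 were lower, 4 higher and 4 called lower, with a median of -0.53. Mybl2 (-2.84 ± 0.093), Foxm1 (-2.74 ± 0.11) and E2f2 (-2.65 ± 0.21) had the largest changes (adjusted p = 3.96e-15, 4.29e-14 and 1.30e-09).

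Of 17 ubiquitin ligase subunits and partners that destroy cyclins or their inhibitors, 11 were lower, 3 higher and 3 called lower, with a median of -0.34. The called genes were Fbxo5, an inhibitor of the anaphase-promoting complex (-2.77 ± 0.066, SE), Ube2c, its ubiquitin carrier (-2.21 ± 0.065), and Cdc20, its activator in mitosis (-1.78 ± 0.073; edgeR, adjusted p = 5.82e-17, 8.35e-16 and 1.18e-13). Of 11 mitogen-linked early factors, 10 passed the filter, 8 were higher and 2 lower, with a median of 0.63, led by Fosl1 (1.30 ± 0.065) and Fos (1.28 ± 0.14; adjusted p = 1.99e-12 and 1.09e-07). Of 17 further cyclins, most of them with roles in transcription or of unclear role, 14 passed the filter, 8 were higher and 1 lower, with a median of 0.28 and the largest changes in Ccnj (0.84 ± 0.17, at 1.07 and 1.94 CPM) and Ccnt2 (0.47 ± 0.049; adjusted p = 1.81e-04 and 7.51e-08). These counts stand against the 30.5% lower and 31.5% higher among all tested genes.

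**Figure D5:**
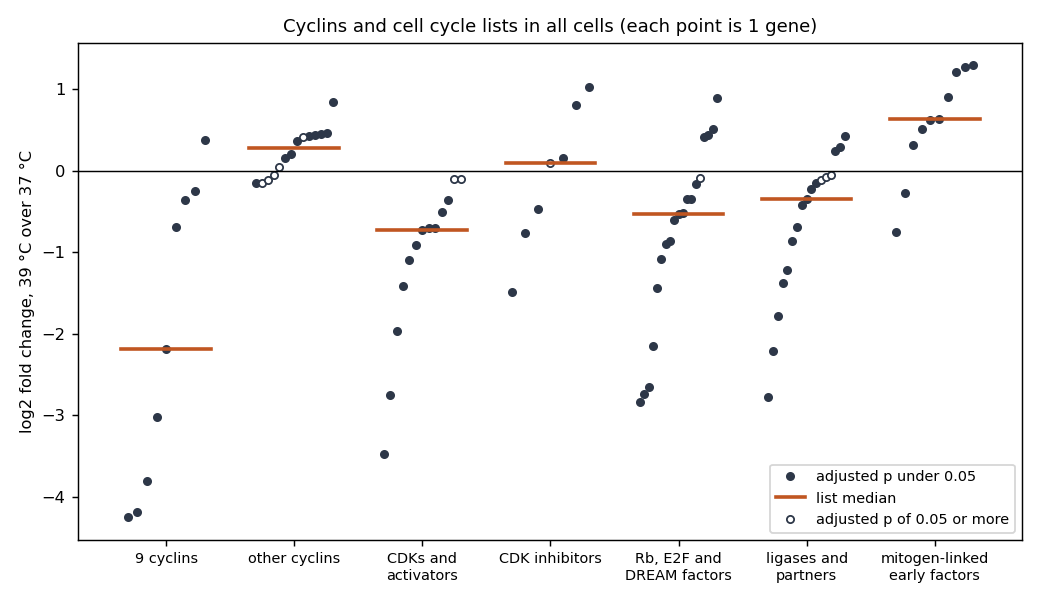
Log2 fold change in all cells (39 °C over 37 °C) of the 9 cyclins and of 6 lists of related genes, with 1 point per gene, filled where the adjusted p was under 0.05, and the median of each list as a line. The medians run from -2.18 for the 9 cyclins and -0.73 for the kinases to 0.63 for the mitogen-linked factors.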

How the data were processed

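SN4741 cells were captured with the Chromium 3′ V3 kit. Per the labels and the study's methods, the authors aligned reads to mm10 with Cell Ranger 3.0.1 and deposited raw UMI counts per gene and cell, with no normalization. The annotation they counted against is not given in the sources used here. Kept cells had 200 to 6000 genes and at most 15% mitochondrial UMIs (18351 of 19125 cells), and no doublet caller was run beyond this limit. The libraries shared at most 5 barcodes. The count profiles of replicate pairs differed beyond the sampling noise of independent UMIs (chi-square of at least 2.85 per degree of freedom). UMIs of the same cell are not independent draws, so this value cannot separate differences between libraries from the sampling of cells.

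Phases were called with Seurat 5.3.0 (original lists matched by letter case, 41 S and 51 G2M genes). Counts were summed per library, or per library and phase, and genes with a mean of 1 count or more tested with edgeR 4.0.16 (R 4.3.3; TMM, glmQLFit, glmQLFTest; temperature alone, or library, phase and their interaction with temperature). SE is the fold change over the square root of F. In simulated counts, 200 genes were given a log2 change of 2, of which 200 were recovered in all cells (15602 genes) and 183 in G2M cells (13445 genes, 1 false call). With the change given in G2M cells only, the interaction test recovered 190 of 200, with 11 false calls (14080 genes). The changed genes were drawn above a limit on the mean count, and the simulated spread was the same for all genes. Recovery of sparser genes was therefore not tested. Single library measures were compared with exact permutation tests over 70 assignments (Python 3.11.15, scipy 1.17.1).

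The members, lists and tests were chosen with earlier results of these data known. The naming rule took all members, up to 3 called genes per list (else the 2 largest changes with an adjusted p under 0.05) and the 2 most similar genes per member. Cdk2, Cdk4, Cdk6 and Cdkn1a fell outside it. Alternatives were other scalings (RLE, upper quartile, totals only), filters (filterByExpr, none), DESeq2 1.42.0, a replicate block, equal totals, other cell filters, phase lists with cyclins left in, each library scored by itself, thinning to 2000 or 5000 UMIs or none, and leaving out each library. Proteins were not analysed here. Transcripts of the T antigen were not analysed here. The value of 1 marker gene is not reported here.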

Additional observations from a re-analysis of the deposited data

Results flagged for a closer look

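Among 90 groups of 4 libraries examined, 5 held a library whose gap to the next one exceeded Dixon's 95% limit, where chance flags about 1 in 20. In G2M cells at 39 °C, replicate 1 was at 147 CPM of Ccna2 against 84.1 CPM in the next library, and at 115 CPM of Ccnb2 against 65.1 CPM. This library gave 27 G2M cells, and both fold changes were larger in size without it, as given above. In G1 cells at 37 °C, replicate 1 was lowest for Ccnb2, at 25.2 CPM against 41.0 CPM in the next, and replicate 4 was highest for Ccnb1, at 12.2 CPM against 8.63 CPM. Replicate 1 at 37 °C also had the lowest share of thinned cells with a Ccnb2 UMI, 15.2% against 18.2%.

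The effect of temperature differed between phases, by the interaction term, in 12 of 18 tests of the members. In S against G1 cells the difference of log2 fold changes was -0.26 for Ccnd1, -0.61 for Ccnd2, -0.29 for Ccnd3, 0.76 for Ccnb1, 2.87 for Ccnb2 and -0.66 for Ccnf. In G2M against G1 cells it was -0.43 for Ccnd2, -0.43 for Ccnd3, 1.32 for Ccne2, 1.10 for Ccna2, 4.39 for Ccnb2 and -0.88 for Ccnf.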

How the results depend on the processing

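In all cells the 9 members kept direction and significance in 171 of 171 refits. Within phases the settings mattered more. With sums thinned to the smallest total, 222 genes were called in G1, 129 in S and 3 in G2M cells (366, 332 and 268 as reported), and in G2M cells Ccnd2 (0.23), Ccne2 (-0.034) and Ccnf (0.42) changed sign, with fewer UMIs by construction. With each library scored by itself, 578, 630 and 863 genes were called, 2501 and 2717 genes passed the interaction tests for S and G2M (1439 and 958 as reported), and the signs of Ccnf in S cells (-0.41), Ccne2 in G2M cells (-0.79), and the interaction of Ccne1 in S (-0.16) and Ccnb1 in G2M (-0.41) turned. The cause was not tested. With totals as the only scaling, the G2M interaction of Ccnd1 turned to 0.019. Leaving out 1 library gave 731 to 1469 genes past the G2M interaction test, the lowest without 39 °C replicate 3 and the highest without 39 °C replicate 1. Ccnd1 and Ccnd2 held 73.8% and 19.0% of D-type UMIs at 37 °C with no cell filter, and 73.7% and 20.002% (Ccnd3 6.31%) in G1 cells.

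The groups share replicate numbers, and the labels do not say whether same-numbered libraries were paired. Their deviations correlated at -0.13, -0.12, -0.12 and 0.33 over 6397 genes. These values cannot settle whether libraries were paired, and the reported fits of temperature alone used no pairing. With the replicate block 878 genes were called in all cells (921 without), 364 in G1, 331 in S and 280 in G2M cells, and among the members only Ccnd3 in G1 cells crossed the threshold (-0.15). Calls in G2M cells at 39 °C rest on 450 cells, and Ccne1 on 13 UMIs there, which limits what can be detected.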
